A study of Mus musculus with 8 samples.

Results

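The fatty acid oxidation and PPAR module is a list of 35 mouse genes, taken by symbol from the 33696 genes of the deposited gene table. Each symbol occurred once. The list holds 4 regulators (Ppara, Ppard, Pparg and Ppargc1a), genes of fatty acyl-CoA synthesis and carnitine-dependent entry into mitochondria, enzymes of the oxidation spiral and its electron carriers, and genes that respond to PPAR signalling. The study profiled single epithelial cells of mouse colon and cecum with a split-pool kit (Parse Evercode WT), in which fixed cells are barcoded over several rounds of pooling. The cell table names 32 loaded samples, numbered 1 to 4 within each tissue and group. Cells came from EDTA-released crypts, were pooled by condition, and were sorted as EPCAM+ CD45- cells with CD44+ and CD44- cells mixed 1:1. The sort thus affects the balance of crypt and differentiated cells, which is not read as that of the tissue. Expression values below are levels within a cell class unless stated otherwise.

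The groups were Abx_4D and Abx_14D, both from antibiotic-treated mice, GF from germ-free mice, and Ctrl from control mice. The sources used here do not give the antibiotics, what 4D and 14D stand for, or the strain, age and sex of the mice. All groups had the same dissociation and sort. The labels do not name the numbered samples as separate animals, so every p-value below measures only how these samples vary, and part of that may be technical. The cecum was compared between all 4 groups. The colon was compared between GF and Abx_14D only, since colon Ctrl kept 50 cells and colon Abx_4D 1026.

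Fatty acids are activated to acyl-CoA by the ACSL synthetases, passed through the mitochondrial membranes as carnitine esters by CPT1, the carrier SLC25A20 and CPT2, and shortened in rounds of dehydrogenation, hydration, a second dehydrogenation and thiolysis. The PPARs are nuclear receptors that bind fatty acids and pair with RXR on DNA at direct repeats, and PGC-1α, the product of Ppargc1a, is a coactivator of PPARs and of mitochondrial biogenesis. In the large bowel, colonocytes are known to burn butyrate, a short-chain fatty acid made by bacteria, through the same mitochondrial spiral. PPARγ is abundant in colonic epithelium, and germ-free mice lack bacterial butyrate.

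Promoter sequences were printed for 4 members that carry the findings below. These are Ppargc1a, which was higher in the colon in both cell classes, Slc25a20, the member with the largest excess in absorptive cells of both tissues, Cpt1a, the entry step, and Fabp1, the classical PPAR target that was almost undetected here. Each line holds the 250 bases before the start site from the RefSeq table of GRCm38.p6, 5′ to 3′ along the gene, and that build is older than the GRCm39 of the deposited gene table. Capitals mark matches on either strand to the direct repeat DR1 (the hexamer AGGNCA, any base, and AGGNCA again) or to the single hexamer AGGTCA, and a single hexamer can lie within a DR1. The Ppargc1a window (minus strand, chr5:51567726-51567975) and the Slc25a20 window (plus strand, chr9:108661886-108662135) hold neither. The Cpt1a window (plus strand, chr19:3323051-3323300) holds 1 single hexamer and the Fabp1 window (plus strand, chr6:71199629-71199878) holds a DR1 and 2 single hexamers.
Ppargc1a: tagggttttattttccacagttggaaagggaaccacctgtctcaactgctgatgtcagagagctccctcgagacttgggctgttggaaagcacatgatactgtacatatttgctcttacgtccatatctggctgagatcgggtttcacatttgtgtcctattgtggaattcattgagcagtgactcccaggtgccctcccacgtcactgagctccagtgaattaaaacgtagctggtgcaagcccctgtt
Slc25a20: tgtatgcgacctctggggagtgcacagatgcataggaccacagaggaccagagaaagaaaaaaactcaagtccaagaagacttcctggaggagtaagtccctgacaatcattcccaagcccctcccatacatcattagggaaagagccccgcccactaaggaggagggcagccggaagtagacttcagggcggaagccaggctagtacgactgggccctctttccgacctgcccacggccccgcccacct
Cpt1a: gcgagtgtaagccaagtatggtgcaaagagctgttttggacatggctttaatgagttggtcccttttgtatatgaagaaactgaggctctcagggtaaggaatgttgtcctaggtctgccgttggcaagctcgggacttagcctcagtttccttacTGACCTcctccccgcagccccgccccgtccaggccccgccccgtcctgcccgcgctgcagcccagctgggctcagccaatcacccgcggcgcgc
Fabp1: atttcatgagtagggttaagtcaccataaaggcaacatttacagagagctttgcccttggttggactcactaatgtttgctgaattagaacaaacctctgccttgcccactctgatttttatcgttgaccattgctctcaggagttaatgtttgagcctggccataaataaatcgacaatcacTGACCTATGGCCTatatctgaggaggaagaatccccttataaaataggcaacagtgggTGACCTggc

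Of the 35 members, 32 had a promoter in that table, and Acaa2, Decr1 and Angptl4 were not matched. The direct repeat lay in the window of 1 member, Fabp1, and of 108 among 27025 genes (0.4%). The single hexamer AGGTCA lay in those of 7 members (Pparg, Cpt1a, Acadm, Acadvl, Plin2, Fabp1 and Cd36) and of 15.8% of all genes. The longer form TNAAGGTCA, known to be bound by estrogen-related receptors, lay in those of no member and of 1.3% of all genes. Hadha and Hadhb, the 2 subunits of the mitochondrial trifunctional protein, lie head to head with 272 bases between their start sites, so their windows share 228 bases. These matches are letters in short windows and say nothing about binding.

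The kept data were 15916 cells with at least 500 transcripts each. Cells were classed by mean log expression of marker genes that include no member, with thresholds chosen after the data were seen. Absorptive cells (Krt20, Slc26a3, Guca2a, Car4 and 8 others) numbered 2227, crypt cells (gated as stem or cycling) 8498, goblet cells 1237 and tuft cells 251. Of the 583 cells within 0.1 of the absorptive threshold, 210 were in that class. Per sample, the absorptive class held 344686 to 1941381 transcripts in the colon and 438165 to 6972937 in the cecum, and the crypt class 3106824 to 20860257 and 894355 to 6678867. Immune markers summed to at most 6.65 CPM (counts of a gene scaled to the total of the class in that sample) and stroma markers to at most 8.91 CPM in any sample of both classes. In absorptive cells of the colon 7 of 8 immune and 4 of 7 stroma markers had 0 counts, and in those of the cecum 3 of 8 and 4 of 7. In the median cell, 4 cecal samples (Abx_4D 2, Abx_14D 3 and 4, GF 4) had over 0.5% mitochondrial transcripts. Of 23007 barcode combinations, 1477 occurred in more than 1 sublibrary. Absorptive sums with at least 20 cells were available for 3 Abx_4D (numbers 1, 3 and 4), 4 Abx_14D, 4 GF and 3 Ctrl (numbers 2, 3 and 4) cecal samples and for 4 colon samples each of GF and Abx_14D.

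The first comparison set absorptive against crypt cells of the same samples, to show where along the crypt axis the module is expressed. In the colon, 22 of 32 members tested rose in absorptive cells and 6 fell, while 26.2% of all genes tested rose and 46.9% fell. In the cecum, 13 of 33 rose and 13 fell, with 24.2% and 61.3% of all genes (edgeR quasi-likelihood test, Benjamini-Hochberg adjusted p under 0.05, loaded sample as a block). The median log2 fold change of the members was 0.55 in the colon and 0.06 in the cecum, against -0.25 and -0.52 over all genes tested. With TMM scaling, which brings the all-gene medians to -0.04 in both tissues, 24 members rose and 5 fell in the colon, and 21 rose and 7 fell in the cecum. Of all genes, TMM gave 3829 higher and 4047 lower in the colon and 4444 higher and 4665 lower in the cecum.

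Slc25a20, the carnitine-acylcarnitine carrier of the inner mitochondrial membrane, had the steepest rise. In the colon it ranged over 133.5, 171.5 and 216.7 CPM (lowest, median and highest of 8 samples) in absorptive cells and over 24.5, 37.4 and 43.6 CPM in crypt cells. In the cecum the same 3 values were 249, 294 and 336 CPM in absorptive cells and 38.6, 59.9 and 79.2 CPM in crypt cells (14 samples). No absorptive sample overlapped a crypt sample in either tissue. The log2 fold changes were 2.24 ± 0.08 (SE, adjusted p = 5.1e-14) and 2.34 ± 0.08 (adjusted p = 3.6e-17). Cpt1a, the outer-membrane enzyme that commits acyl groups to entry, rose by 0.98 ± 0.08 in the colon (adjusted p = 3.4e-09), where its absorptive range of 238 to 392 CPM lay above the crypt range of 138 to 221 CPM. In the cecum it rose by 0.59 ± 0.05 (adjusted p = 1.9e-10), in 14 of 14 samples. Cpt2, the inner-membrane partner, rose by 1.10 ± 0.13 and by 0.68 ± 0.08.

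Acsl1, Acsl5 and Acot1 fell in absorptive cells of both tissues. Acsl1, a long-chain acyl-CoA synthetase, fell by 2.34 ± 0.13 in the colon (adjusted p = 1.6e-11) and by 2.86 ± 0.10 in the cecum (adjusted p = 1.1e-16). In the colon it ranged over 10.8, 15.3 and 26.4 CPM in absorptive cells and over 64.2, 80.5 and 123.0 CPM in crypt cells. In the cecum it ranged over 9.13, 25.3 and 83.9 CPM in absorptive cells and over 89.3, 191.5 and 343 CPM in crypt cells, again with no overlap. Its relative Acsl5 fell by 0.59 ± 0.07 and 0.63 ± 0.06, where all genes tested had medians of -0.25 and -0.52. Acot1, a cytosolic acyl-CoA thioesterase, was at most 5.75 CPM in colon and 9.97 CPM in cecal absorptive cells, and it fell by 3.24 ± 0.30 and 3.75 ± 0.20. Its mitochondrial paralog Acot2 fell by 1.36 ± 0.15 in the cecum and had a log2 fold change of -0.12 ± 0.27 in the colon (adjusted p = 0.70). Acot1 and Acot2 are near-identical copies, as are Acaa1a and Acaa1b, and the sources used here do not say how reads shared by such copies were assigned.

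Among the dehydrogenases of the first step, the medium-chain enzyme Acadm rose by 1.16 ± 0.07 in the colon and 1.12 ± 0.06 in the cecum, and the long-chain enzyme Acadl by 1.43 ± 0.09 and 0.70 ± 0.06. The very-long-chain enzyme Acadvl and the short-chain enzyme Acads rose in both tissues as well, by 0.48 to 0.85. Acadsb, the short/branched-chain enzyme of isoleucine breakdown, fell in both, by 0.82 ± 0.14 and 0.70 ± 0.16. Of the trifunctional protein that performs the later steps on long chains, Hadha rose by 0.48 ± 0.07 and 0.58 ± 0.06 and Hadhb by 0.66 ± 0.10 and 0.35 ± 0.07. Decr1, the dienoyl-CoA reductase that handles unsaturated chains, and Ehhadh, the peroxisomal bifunctional enzyme, split between the tissues. Decr1 rose by 0.54 ± 0.09 in the colon and fell by 0.49 ± 0.10 in the cecum, and Ehhadh rose by 0.32 ± 0.12 and fell by 0.45 ± 0.15. The all-gene median of the cecal fit was -0.52. The cecal falls of Decr1 and Ehhadh were smaller than that, and that of Acadsb was slightly larger. Eci1 and Eci2, isomerases for double bonds, rose in neither tissue. Eci1 fell by 0.98 ± 0.11 in the cecum (adjusted p = 1.9e-08), more than the all-gene median. In the colon it had a log2 fold change of -0.05 ± 0.11 (adjusted p = 0.74). Eci2 fell by 0.27 ± 0.12 in the colon (adjusted p = 0.040) and by 0.42 ± 0.11 in the cecum (adjusted p = 0.0015), the latter less than that median.

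The regulators also differed. Ppara, the receptor known to drive oxidation genes in liver, rose by 1.39 ± 0.09 in the colon (adjusted p = 1.6e-10) and 0.92 ± 0.07 in the cecum (adjusted p = 7.4e-11). Ppard, the widely expressed receptor, rose by 0.64 ± 0.07 and 0.46 ± 0.06. Pparg rose by 0.57 ± 0.06 in the colon (adjusted p = 2.0e-07) and had a log2 fold change of 0.06 ± 0.07 in the cecum (adjusted p = 0.42). Ppargc1a ranged over 324, 354 and 469 CPM in colon absorptive cells and over 135.1, 149.0 and 187.5 CPM in colon crypt cells, a rise of 1.28 ± 0.07 (adjusted p = 3.2e-11). In the cecum it ranged over 49.6, 80.2 and 133.1 CPM in absorptive cells and over 46.5, 78.7 and 104.7 CPM in crypt cells, with a log2 fold change of 0.09 ± 0.11 (adjusted p = 0.45). Absorptive and crypt samples of the cecum overlapped. With TMM scaling, which shifts all cecal values up, both were called in the cecum, Ppargc1a at 0.57 (adjusted p = 2.5e-05) and Pparg at 0.54 (adjusted p = 3.4e-07).

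Of the PPAR-responsive genes, Pdk4, the kinase that shuts pyruvate out of mitochondria, rose by 0.37 ± 0.10 in the colon (adjusted p = 0.0035) and fell by 1.21 ± 0.20 in the cecum (adjusted p = 6.9e-06). Its cecal median was 15.1 CPM in absorptive cells and 48.6 CPM in crypt cells, and its colon median was 53.1 CPM and 42.9 CPM. Angptl4, a secreted inhibitor of lipoprotein lipase, fell by 0.89 ± 0.21 and by 2.36 ± 0.29. Plin2, which coats lipid droplets, fell by 0.60 ± 0.10 in the cecum (adjusted p = 7.8e-06) but was not called there with TMM scaling (-0.12, adjusted p = 0.28) and had a log2 fold change of 0.18 ± 0.11 in the colon (adjusted p = 0.16).

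**Figure D1:**
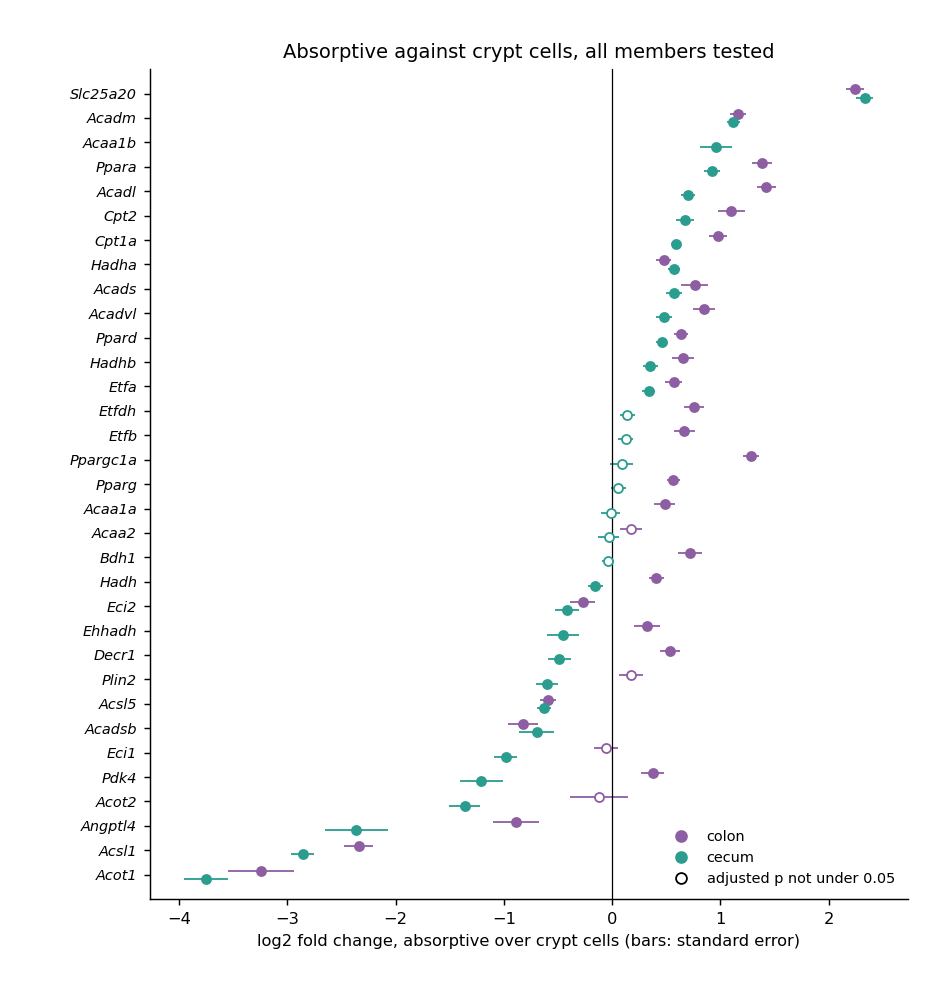
Log2 fold change of absorptive over crypt cells for each member tested, with standard errors, in colon (8 samples) and cecum (14 samples); filled points passed an adjusted p under 0.05. Slc25a20 stands at the top (2.24 and 2.34), Acot1 and Acsl1 at the bottom, and most members lie farther right in the colon.

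The difference between the tissues in this zonation was tested in 1 model over the 8 colon and 8 cecal samples of GF and Abx_14D. It was positive (absorptive against crypt higher in colon than in cecum) for 21 of 33 members tested and negative for 0, with 27.8% and 5.96% of all genes, and the median was 0.51 for members and 0.25 for all genes. TMM scaling, under which the all-gene median was 0.05, left 11 positive and 2 negative, with 13.8% and 11.1% of all genes. The difference was 1.80 ± 0.25 for Pdk4 (adjusted p = 8.5e-06), 1.23 ± 0.14 for Decr1 (6.1e-07), 0.98 ± 0.12 for Ppargc1a (7.6e-07), 0.95 ± 0.17 for Eci1, 0.83 ± 0.14 for Bdh1 and 0.77 ± 0.12 for Acadl, all adjusted p from the edgeR fit. Bdh1 makes the ketone body β-hydroxybutyrate.

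The absorptive class itself differed between the tissues. Its median marker score was 1.41 in 429 colon cells and 2.02 in 1191 cecal cells of GF and Abx_14D, and 56.9% of the colon cells but 28.6% of the cecal cells scored under 1.5. Limited to absorptive cells that scored under 1.5, an alternative added after the data were seen, 5 members kept a positive difference (Acadl, Bdh1, Cpt1a, Decr1 and Ppargc1a) and 0 a negative one, with 8.17% and 2.14% of all genes. Ppargc1a then had 0.49 and Decr1 0.76, while Pdk4 had 1.01 with an adjusted p of 0.072 and Eci1 0.30 with 0.40. In the same cells 21 members rose and 5 fell in the colon, with 21.5% and 35.3% of all genes, and 18 rose and 6 fell in the cecum, with 20.2% and 49.2%.

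Levels were also read in finer steps along the marker score, as a description over GF and Abx_14D samples with no test. Cecal Slc25a20 averaged 46.1 ± 17 CPM (SD, n = 6) in cells scoring under 0.25, 144 ± 35 (n = 7) between 1 and 1.5, and 370.2 ± 35 (n = 6) from 2 upward. Cecal Acsl1 averaged 281 ± 80, 71.6 ± 34 and 18.1 ± 6.9 CPM in those steps. Several members peaked in the middle of the cecal range. Bdh1 averaged 78.3 ± 12 CPM at the low end, 158 ± 34 between 1 and 1.5 and 89.5 ± 32 at the high end, and Hadh (the short-chain hydroxyacyl-CoA dehydrogenase) 127 ± 25, 252 ± 52 and 117 ± 45. Eci1 averaged 62.4 ± 15 CPM at the low end, 71.1 ± 20 between 1 and 1.5 and 16.1 ± 4.8 at the high end. Ppargc1a in the colon averaged 172 ± 24 CPM (n = 8) under 0.25 and 307 ± 83 (n = 6) between 1 and 1.5, and in the cecum 90.5 ± 33 (n = 6) and 114 ± 23 (n = 7) at the same scores. Colon cells scoring above 1.5 were too few per sample to be averaged.

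**Figure D2:**
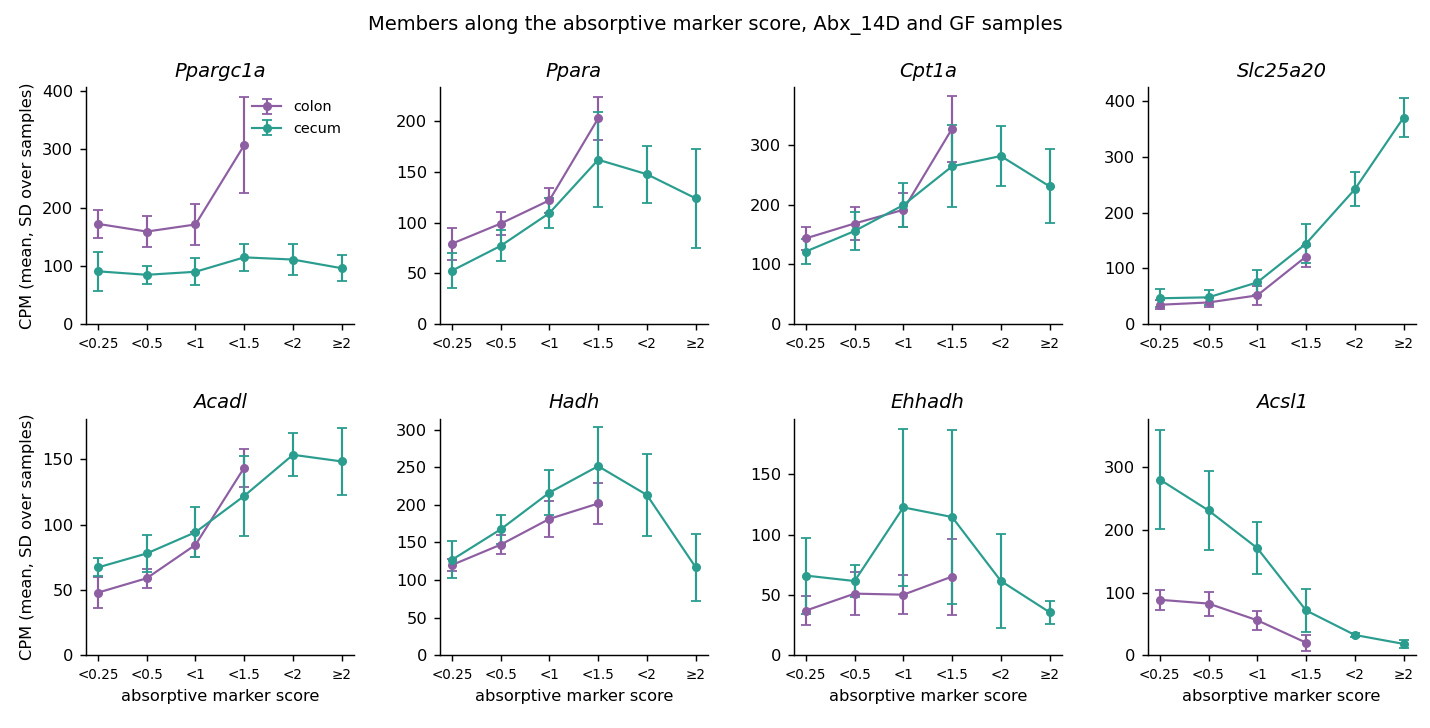
Mean CPM with SD over samples of 8 members in cells binned by absorptive marker score, for colon and cecum (GF and Abx_14D samples, at least 20 cells per sample and bin). Slc25a20 climbs and Acsl1 drops along the score in both tissues, and Ppargc1a climbs in the colon.

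The next comparison set colon against cecum within a class and group, which bears on regional identity, named in the series title. In absorptive cells 5 of 32 members tested rose in the colon and 2 fell, in Abx_14D and in GF alike. Of all genes, 19.3% rose and 7.37% fell in Abx_14D and 12.1% and 4.81% in GF, so the members' shares were near the background. In cells scoring under 1.5, 1 of 29 members rose in Abx_14D and 2 in GF, and 0 fell, while 7.05% and 7.84% of all genes rose. Over all kept cells, in place of the class, 2 of 33 rose and 16 fell in Abx_14D (18.5% and 16.5% of all genes) and 2 rose and 10 fell in GF (14.3% and 9.28%). The members' median was 0.14 and 0.07, against 0.19 and 0.09 over all genes. With TMM scaling 4 members rose and 3 fell in Abx_14D (of all genes 1323 and 1238), and 5 rose and 4 fell in GF (1005 and 751). Colon and cecal samples of the same group and number deviated together. Samples of different numbers were not set beside them, so this does not show that they are pairs. The fit with such samples as a block changed the count in absorptive cells by less than 1.5 times.

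Ppargc1a was the member with the largest difference in Abx_14D. In Abx_14D samples 1 to 4 it had 343, 469, 419 and 347 CPM in colon absorptive cells and 69.9, 133.1, 82.3 and 103.4 CPM in cecal ones. In GF samples it had 324, 335, 361 and 461 CPM in the colon and 122, 113, 95.7 and 127 CPM in the cecum. The 2 tissues did not overlap in either group. Its log2 fold change was 2.02 ± 0.18 in Abx_14D (adjusted p = 9.6e-09) and 1.68 ± 0.18 in GF (adjusted p = 2.1e-07), and it stayed past the threshold under every alternative tried. In cells scoring under 1.5 the values were 1.53 and 1.28, both past the threshold.

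Pdk4 in Abx_14D had 41.0, 61.9, 98.4 and 84.9 CPM in colon samples 1 to 4 and 15.6, 11.9, 39.4 and 24.2 CPM in cecal ones. In GF it had 44.3, 73.0, 29.3 and 23.2 CPM in the colon and 7.89, 8.74, 7.5 and 6.21 CPM in the cecum. Each colon sample was above each cecal sample of its group, by 1.5 ± 0.32 in Abx_14D (adjusted p = 0.00093) and 2.62 ± 0.39 in GF (adjusted p = 1.9e-05). Over cells scoring under 1.5 the GF difference was 2.03 (adjusted p = 0.013) and the Abx_14D difference 0.48 (adjusted p = 0.58). Over all kept cells it was -0.07 in GF (adjusted p = 0.92) and 0.37 in Abx_14D (adjusted p = 0.48).

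Decr1 rose by 1.15 ± 0.21 in Abx_14D and 0.90 ± 0.22 in GF. It averaged 55.7 ± 8.9 CPM in the colon and 25.7 ± 6.7 in the cecum in Abx_14D (SD, n = 4 each). Slc25a20 fell by 0.68 ± 0.14 (adjusted p = 0.00075) and 0.78 ± 0.14 (adjusted p = 0.00030), at 184 ± 22 against 292 ± 44 CPM and 159 ± 21 against 278 ± 19 CPM. Neither was called in cells scoring under 1.5, where Slc25a20 had -0.28 and -0.41 and Decr1 0.62 and 0.48. The stricter marker gate ended the calls of Slc25a20 in both groups (-0.48 and -0.43) and of Decr1 in GF (0.75).

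Ppara in Abx_14D had 261, 193, 239.5 and 239 CPM in colon samples and 170.1, 133, 87.1 and 137 CPM in cecal samples, a rise of 0.84 ± 0.19 (adjusted p = 0.0015). In GF it averaged 225.5 ± 52 and 168 ± 28 CPM (0.43 ± 0.19, adjusted p = 0.13). Ppard in GF had 456, 415, 470.5 and 435 CPM in the colon and 309.9, 212, 263 and 333 CPM in the cecum, a rise of 0.67 ± 0.14 (adjusted p = 0.0016). In Abx_14D it had 0.33 ± 0.14 (adjusted p = 0.091). Neither was called in cells scoring under 1.5 (0.62, adjusted p = 0.070, and 0.54, adjusted p = 0.095). Pparg averaged 444 ± 60 CPM in the colon and 466 ± 88 in the cecum in Abx_14D, and 428 ± 31 and 391 ± 47 in GF (-0.07 ± 0.15 and 0.13 ± 0.15).

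Cpt1a rose by 0.56 ± 0.18 in Abx_14D (adjusted p = 0.020), with 325 ± 46 CPM in the colon and 219.6 ± 9.1 in the cecum, and had 0.12 ± 0.18 in GF. With TMM scaling the first was 0.37 (adjusted p = 0.095), and without cecal Abx_14D 3 or colon Abx_14D 3 it was 0.55 (adjusted p = 0.053) and 0.49 (adjusted p = 0.068). Acadsb rose in GF by 1.15 ± 0.31 (adjusted p = 0.011), at 21.3 ± 8.2 against 9.11 ± 1.9 CPM. It was lost without cecal GF 3 (0.96, adjusted p = 0.057) or colon GF 2 (1.02, adjusted p = 0.062). Acsl1 fell in GF by 1.21 ± 0.35 (adjusted p = 0.017), but without cecal GF 1, whose 83.9 CPM stood far above the other 3, it had -0.78 (adjusted p = 0.076), and without colon GF 1 -1.17 (adjusted p = 0.063). Acaa1b, a peroxisomal thiolase, fell in Abx_14D by 1.30 ± 0.46 (adjusted p = 0.036) and was lost in 5 of 8 fits that left out 1 sample of the 2 sets. These were the fits without cecal Abx_14D 1 (-1.25) or 4 (-1.17) and without colon Abx_14D 2 (-1.01), 3 (-1.18) or 4 (-0.99). Plin2 (0.37 and 0.43) and Angptl4 (0.46 and 1.63) were not called.

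**Figure D3:**
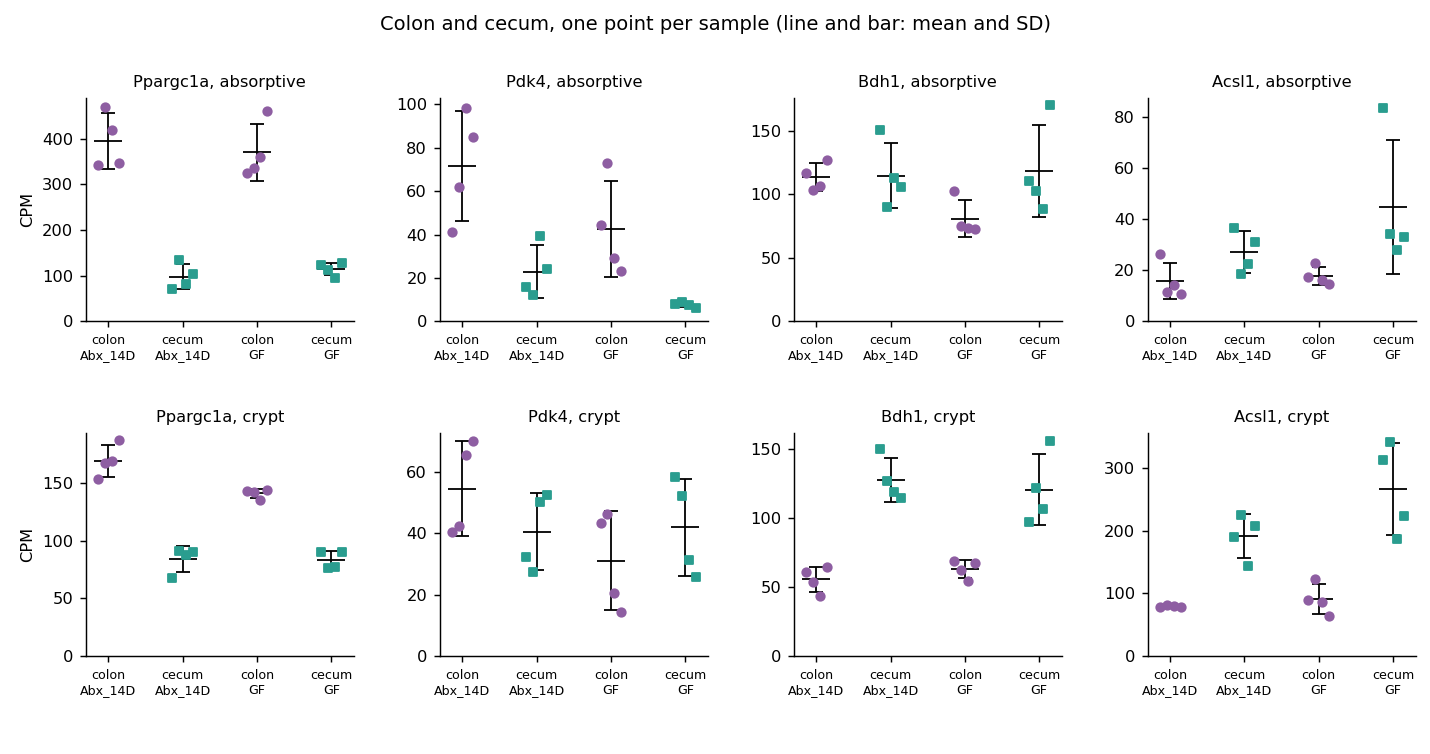
CPM per sample in absorptive and crypt cells of colon and cecum of 4 members for Abx_14D and GF, with mean and SD; each point is 1 loaded sample. Ppargc1a is higher in every colon sample than in every cecal sample of its class and group, and Pdk4 is so in absorptive cells.

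In crypt cells more members fell than rose in the colon. In Abx_14D 2 of 33 members rose and 18 fell, with 15.2% and 21.5% of all genes, and in GF 3 rose and 8 fell, with 8.97% and 8.55%. The members' median was -0.39 and -0.32, against -0.07 and -0.02 over all genes. Without the samples high in mitochondrial transcripts, which include 2 cecal Abx_14D samples, 2 rose and 7 fell in Abx_14D, with 11% and 11.2% of all genes. With colon and cecal samples of the same number as a block, 4 rose and 13 fell in GF, with 10.3% and 10.1%. Without colon GF 3, 2 rose and 5 fell in GF, with 7.47% and 5.61%.

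Colon and cecal crypt cells also differed in cycling. Summed over 13 cycling markers, colon crypt samples had 975.5 to 1547 CPM and cecal ones 1667 to 3667 CPM, and over 11 stem markers 5273 to 6752 and 3248 to 5342 CPM. In non-cycling stem cells alone, an alternative added after the data were seen, 2 members rose and 12 fell in Abx_14D, with 8.78% and 13.0% of all genes, and 2 rose and 6 fell in GF, with 6.44% and 5.24%. The part of cycling in the remaining difference was not tested.

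Acsl1 in Abx_14D had 78.8, 81.5, 79.5 and 78.2 CPM in colon crypt samples 1 to 4 and 189.7, 225, 145 and 208 CPM in cecal ones. In GF it had 89.0, 123.0, 86.9 and 64.2 CPM in the colon and 314, 343, 187 and 223 CPM in the cecum. Colon and cecum did not overlap. It fell by 1.27 ± 0.19 (adjusted p = 3.0e-05) and 1.54 ± 0.19 (adjusted p = 3.8e-06), and in non-cycling stem cells by 1.51 and 1.73.

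Bdh1 fell by 1.19 ± 0.15 (adjusted p = 3.0e-06) and 0.92 ± 0.15 (adjusted p = 1.0e-04), averaging 55.4 ± 9.3 CPM in colon and 127.5 ± 16 in cecal crypt cells of Abx_14D, and 63.3 ± 6.5 and 120.4 ± 26 in GF. Cpt2 fell by 0.66 ± 0.15 and 0.78 ± 0.15, and Eci1 by 0.64 ± 0.14 and 0.82 ± 0.14. In these genes, too, no colon sample overlapped a cecal sample of its group. Acsl1, Bdh1 and Cpt2 stayed past the threshold in both groups under every alternative run. In Abx_14D Ehhadh fell by 1.09 ± 0.27, Etfb (a subunit of the electron transfer flavoprotein) by 0.75 ± 0.21 and Acaa1a by 0.71 ± 0.17. Without the high-mitochondrial samples these were -0.47, -0.27 and -0.47 and none was called, and Etfb was lost without cecal Abx_14D 4 (-0.54, adjusted p = 0.051). Acaa1b fell by 2.48 ± 0.48 in Abx_14D, where it was under 10 CPM in all samples, and by 1.68 ± 0.39 in GF. Acadl fell in GF by 0.45 ± 0.14 (adjusted p = 0.029) and was lost without cecal GF 2 (-0.38), 3 (-0.47) or 4 (-0.41) or colon GF 1 (-0.42) or 3 (-0.46).

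Against this, Ppargc1a and Acadsb were higher in the colon in crypt cells too. Ppargc1a in Abx_14D had 154, 167, 169 and 187 CPM in colon samples and 67.4, 91.3, 87.3 and 90.5 CPM in cecal ones, a rise of 1.01 ± 0.11 (adjusted p = 4.3e-07). In GF it had 143, 142, 135.1 and 144 CPM in the colon and 90.1, 76.0, 77.0 and 90.1 CPM in the cecum, a rise of 0.77 ± 0.11 (adjusted p = 2.5e-05). Acadsb rose by 0.69 ± 0.19 and 0.91 ± 0.20. Pparg fell by 0.54 ± 0.11 in Abx_14D (adjusted p = 0.00068) and by 0.40 ± 0.11 in GF (adjusted p = 0.015), averaging 299 ± 50 CPM in colon and 436 ± 35 in cecal crypt cells of Abx_14D and 289.9 ± 18 and 383 ± 15 in GF. Without colon GF 3 the GF value was -0.37 (adjusted p = 0.055). Ppard rose in GF by 0.30 ± 0.10 (adjusted p = 0.034) and was lost in 5 of the 8 fits that left out a GF sample, those without cecal GF 2 (0.23) or 3 (0.32) or colon GF 1 (0.29), 2 (0.27) or 3 (0.33), and with the pairs as a block. Ppara (0.26 and -0.04), Cpt1a (-0.06 and -0.11), Pdk4 (0.41 and -0.40), Plin2 (-0.18 and -0.21) and Angptl4 (-0.13 and -0.61) were not called.

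**Figure D4:**
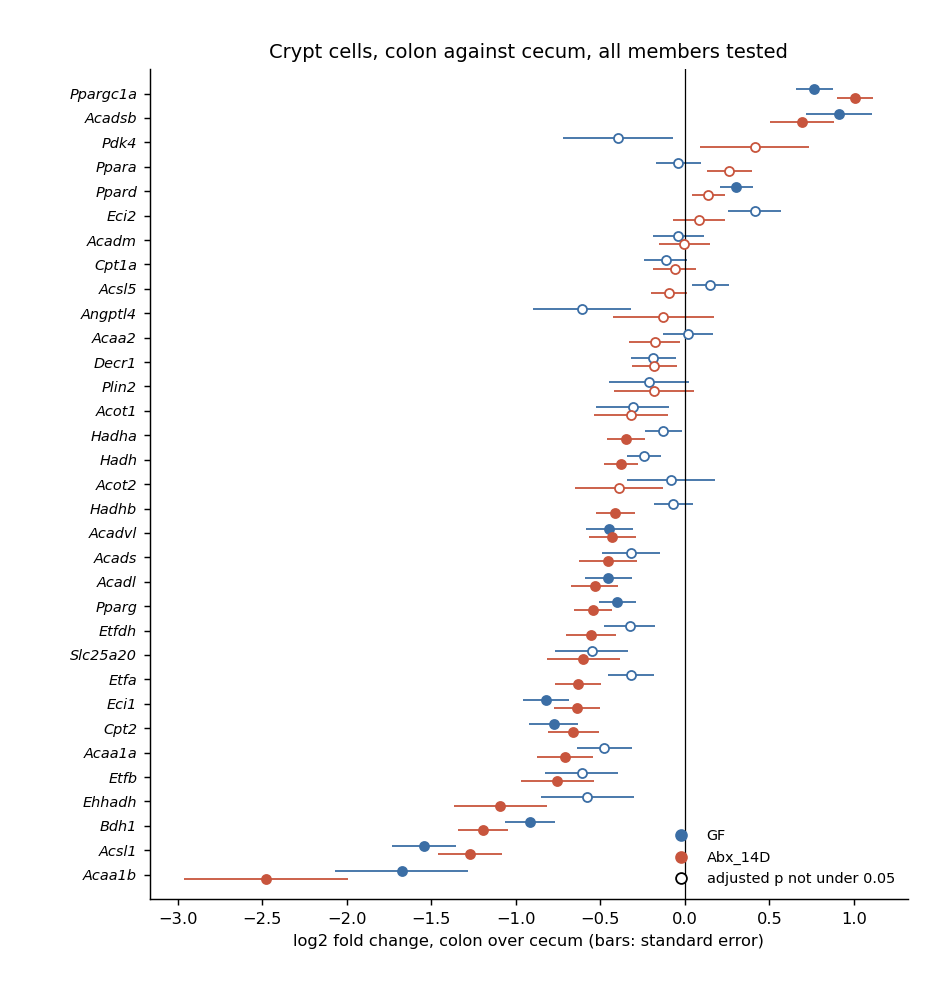
Log2 fold change of colon over cecum in crypt cells for each of the 33 members tested, with standard errors, in GF and Abx_14D (4 samples per tissue and group); filled points passed an adjusted p under 0.05. Ppargc1a and Acadsb lie right of 0 in both groups, and Acsl1, Bdh1, Cpt2 and Eci1 lie left.

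The cecal groups were then set against Ctrl, to show what antibiotics or germ-free rearing went with. The 3 comparisons share their Ctrl samples. In absorptive cells, 3 of 32 members rose and 3 fell in GF, with 7.34% and 5.46% of all genes. In Abx_14D 1 rose and 0 fell, with 3.68% and 3.16%, and in Abx_4D 0 rose and 1 fell, with 1.47% and 1.49%. The members' medians were -0.009 in Abx_4D, 0.02 in Abx_14D and -0.12 in GF, against 0.12, 0.13 and 0.16 over all genes. Without Ctrl 3 or Ctrl 4, 2 members rose and 1 fell in GF, with 3.11% and 4.34% of all genes without Ctrl 3 and 3.17% and 3.63% without Ctrl 4. With TMM scaling, which brings the all-gene medians to 0.03, 0.02 and 0.03, GF had 3 higher and 5 lower members. Of all genes TMM gave 121 higher and 237 lower in Abx_4D, 307 and 460 in Abx_14D and 521 and 766 in GF. Summed over 12 absorptive markers, samples had 13000 to 18080 CPM in Abx_4D, 11690 to 25440 in Abx_14D, 12070 to 15670 in GF and 11940 to 17670 in Ctrl. The groups overlapped in these sums. Stroma markers summed to 0 to 6.97 CPM in Abx_4D, 0.92 to 4.45 in Abx_14D, 0.73 to 4.83 in GF and 4.56 to 8.26 in Ctrl, and their part in the results was not tested.

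Ppargc1a had 78.1, 57.9 and 54.5 CPM in Abx_4D samples 1, 3 and 4, 69.9, 133.1, 82.3 and 103.4 CPM in Abx_14D samples 1 to 4, 122, 113, 95.7 and 127 CPM in GF samples 1 to 4, and 52.5, 49.6 and 61.1 CPM in Ctrl samples 2 to 4. Every GF and Abx_14D sample was above every Ctrl sample, and Abx_4D overlapped Ctrl. It rose by 1.06 ± 0.22 in GF (adjusted p = 0.0023) and 0.82 ± 0.22 in Abx_14D (adjusted p = 0.022), and in Abx_4D had 0.18 ± 0.24 (adjusted p = 0.77). The Abx_14D call was lost without Abx_14D 2 (0.65) or 4 (0.79) and without Ctrl 2 (0.81), 3 (0.74) or 4 (0.94). The GF call held in each fit without 1 sample. Over all kept cells the values were 0.36 in GF and 0.28 in Abx_14D, neither called. In crypt cells Ppargc1a had 0.07 ± 0.19 in GF and 0.09 ± 0.19 in Abx_14D. The GF change was larger in absorptive than in crypt cells by 0.99 ± 0.23 (adjusted p = 0.014), and without Ctrl 3 by 0.63 (adjusted p = 0.21). Ppargc1a was the only member called in that test with all samples (0 in the other direction), in which 4.59% of all genes passed in either direction. Without Ctrl 3 Pdk4 was called in its place, and without Ctrl 2 or GF 2 the test called 2 members. The shares of all genes in these fits are not given, so their counts are not read further.

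Pparg had 349, 335 and 407 CPM in Abx_4D samples, 372, 411, 524 and 556 CPM in Abx_14D, 423, 322, 399.6 and 419 CPM in GF, and 579.7, 685 and 617 CPM in Ctrl. All Ctrl samples were above all others. It fell by 0.68 ± 0.17 in GF (adjusted p = 0.010) and 0.79 ± 0.19 in Abx_4D (adjusted p = 0.021), and in Abx_14D had -0.43 ± 0.17 (adjusted p = 0.15), which TMM scaling moved to -0.53 (adjusted p = 0.031). The GF call was lost without Ctrl 3 (-0.61, adjusted p = 0.065). The Abx_4D call was lost without Abx_4D 1 (-0.76) or 3 (-0.73) or Ctrl 3 (-0.72) or 4 (-0.80). Ppara ran the other way. It had 172, 154, 140.4 and 206 CPM in GF and 132, 82.6 and 77.6 CPM in Ctrl, a rise of 0.85 ± 0.23 (adjusted p = 0.015). It averaged 149.6 ± 12 CPM in Abx_4D and 132 ± 34 in Abx_14D (0.68 and 0.48, not called). The GF call was lost without Ctrl 3 (0.75), Ctrl 4 (0.71) or GF 4 (0.73). Ppard averaged 273 ± 44 CPM in Abx_4D, 268 ± 17 in Abx_14D, 279.5 ± 54 in GF and 360.2 ± 120 in Ctrl and was not called.

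Pdk4 had 79.8, 12.3 and 14.6 CPM in Abx_4D samples, 15.6, 11.9, 39.4 and 24.2 CPM in Abx_14D, 7.89, 8.74, 7.5 and 6.21 CPM in GF, and 41.1, 23.1 and 39.0 CPM in Ctrl. The GF samples were the lowest of all and close together. It fell by 2.15 ± 0.52 in GF (adjusted p = 0.0077), and without Ctrl 4 had -1.97 (adjusted p = 0.063). It had -0.17 ± 0.53 in Abx_4D and -0.42 ± 0.46 in Abx_14D. Over all kept cells the GF value was -0.94 (adjusted p = 0.15). Acsl1 had 36.6, 15.2 and 22.2 CPM in Abx_4D, 36.8, 18.6, 22.5 and 31.3 CPM in Abx_14D, 83.9, 34.2, 28.1 and 33.1 CPM in GF, and 9.13, 15.2 and 14.1 CPM in Ctrl. It rose by 1.62 ± 0.38 in GF (adjusted p = 0.0067), with no overlap, also in each fit without 1 sample. Over all kept cells it was 0.98 (adjusted p = 0.059). Acadl fell by 0.69 ± 0.20 in GF (adjusted p = 0.028), at 125 ± 14 CPM (SD, n = 4) against 201.5 ± 23 CPM (n = 3) in Ctrl. It was lost without Ctrl 3 (-0.71) or 4 (-0.60) or GF 1 (-0.63), 2 (-0.69) or 3 (-0.69).

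Cpt1a, Plin2 and Angptl4 were not called in any cecal group. Cpt1a averaged 203 ± 30 CPM in Abx_4D, 219.6 ± 9.1 in Abx_14D, 293 ± 76 in GF and 239 ± 14 in Ctrl absorptive cells. Plin2 averaged 44.5 ± 2.7, 59.4 ± 29, 41.3 ± 8.1 and 64.2 ± 10 CPM in the same order, and Angptl4 0.79 ± 0.99, 6.05 ± 6.4, 3.99 ± 3.1 and 8.83 ± 10 CPM. The spiral enzymes Hadha, Hadhb, Acads, Acadm and Acadvl had log2 fold changes between -0.21 and 0.47 in all 3 comparisons, none called.

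**Figure D5:**
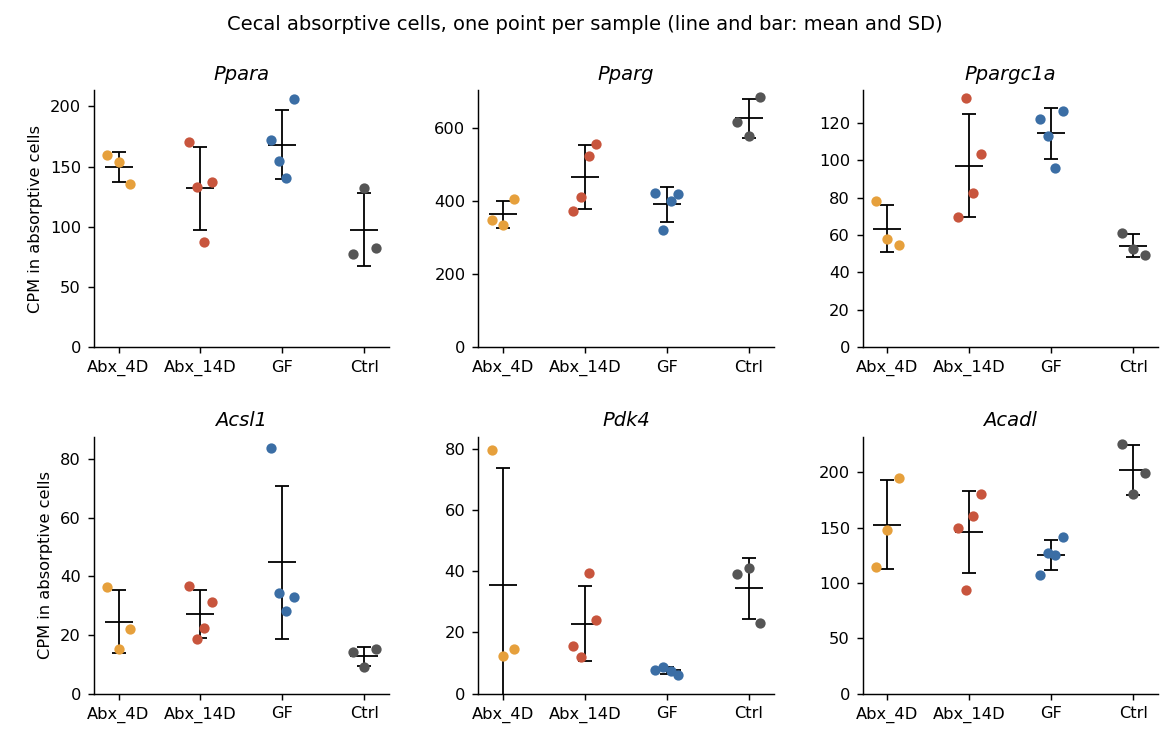
CPM per sample in cecal absorptive cells of Abx_4D, Abx_14D, GF and Ctrl for 6 members, with mean and SD; each point is 1 loaded sample, and the lower bar of Pdk4 in Abx_4D is clipped at 0. Ppargc1a and Acsl1 are higher and Pparg and Pdk4 lower in every GF sample than in every Ctrl sample.

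In cecal crypt cells 2 of 33 members rose and 3 fell in GF (1.76% and 2.93% of all genes), 0 rose and 1 fell in Abx_14D (0.7% and 1.85%), and 0 were called in Abx_4D by edgeR (0.118% and 0.455%). At an unadjusted p under 0.05, 10 members passed in Abx_4D, as did 9.76% of all genes. There DESeq2 called 0 members higher and 1 lower, with 0.329% and 1.29% of all genes. In GF it called 3 higher and 6 lower, with 2.65% and 4.03%. By edgeR 2 rose and 0 fell in GF without Ctrl 1, GF 3 or GF 4, and 2 rose and 1 fell without Ctrl 3 or Ctrl 4, while 1.02% to 1.46% of all genes rose and 1.78% to 2.74% fell in these fits. The members' medians were -0.08, 0.03 and -0.06 in Abx_4D, Abx_14D and GF, against 0.03, 0.03 and -0.008 over all genes.

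Acsl1 had 314, 343, 187 and 223 CPM in GF crypt samples and 148, 89.3, 146 and 106 CPM in Ctrl, a rise of 1.13 ± 0.22 (adjusted p = 0.0035) without overlap. Ppara had 87.7, 76.3, 74.1 and 118 CPM in GF and 58.3, 52.3, 57.7 and 40.4 CPM in Ctrl, a rise of 0.77 ± 0.17 (adjusted p = 0.0083) that held under every alternative run. Pparg fell by 0.47 ± 0.13 (adjusted p = 0.036), at 383 ± 15 against 529 ± 81 CPM (SD, n = 4 each), and was lost in 7 of the 8 fits without a GF or Ctrl sample. Without Ctrl 2 it held, and otherwise it had values of -0.39 (without Ctrl 1) to -0.49 (without GF 2). Acot2 fell by 1.08 ± 0.27 and Acot1 by 0.70 ± 0.18 in GF, and Acot1 by 0.81 ± 0.18 in Abx_14D (adjusted p = 0.014). Acot2 was lost without Ctrl 1 (-1.04), 3 (-1.05) or 4 (-0.98) or GF 2 (-1.01), 3 (-1.07) or 4 (-1.07). Acot1 in GF was lost without Ctrl 1 (-0.59) or 2 (-0.70) or GF 3 (-0.62) or 4 (-0.61), and in Abx_14D without Ctrl 1 (-0.69) or Abx_14D 3 (-0.72). Ppargc1a, Ppard, Cpt1a, Pdk4, Plin2 and Angptl4 were not called in crypt cells of any group. The nearest was Plin2 in GF, which averaged 65.4 ± 24 CPM against 114 ± 27 CPM in Ctrl (-0.78 ± 0.25, adjusted p = 0.092), and DESeq2 called it (-0.80, adjusted p = 0.036).

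GF against Abx_14D, the 2 groups measured in both tissues, gave no called member. In cecal absorptive cells edgeR called 0 of 32 (0.741% of all genes rose and 1.99% fell), 6 passed an unadjusted p under 0.05 (13.9% of all genes) and DESeq2 called 1, Pdk4 (-1.67, adjusted p = 0.018). TMM scaling called it too (-1.76, adjusted p = 0.048), as did edgeR without Abx_14D 1 (-1.85) or 2 (-1.91), and without Abx_14D 2 Plin2 was called as well (-0.83). In colon absorptive cells edgeR called 0 of 29 (0.54% and 1.43%), with 7 at an unadjusted p under 0.05 (13.3% of all genes) and 0 by DESeq2. In crypt cells edgeR called 0 of 33 in the cecum (0.11% and 0.186%) and 0 of 32 in the colon (0.118% and 0.875%), with 4 and 5 at an unadjusted p under 0.05 (11.9% of all genes in both) and 0 each by DESeq2. Whether GF against Abx_14D differed between colon and cecum was tested by an interaction term. It called 0 members in absorptive cells (0.0938% of all genes, 2 members and 9.51% of all genes at an unadjusted p under 0.05) and 0 in crypt cells (0.00794%, with 1 member and 7.49% at that p), and DESeq2 called 0 in both. Pdk4 in colon absorptive cells averaged 42.5 ± 22 CPM in GF and 71.5 ± 25 in Abx_14D (SD, n = 4 each), and in the cecum 7.58 ± 1.1 and 22.8 ± 12.

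Outside these classes, cecal goblet cells averaged 399.7 ± 65 CPM of Ppargc1a in Abx_4D (n = 2), 337 ± 81 in Abx_14D (n = 4), 281 ± 85 in GF (n = 4) and 268 ± 117 in Ctrl (n = 2). In colon goblet cells it averaged 249.8 ± 58 in GF and 353 ± 64 in Abx_14D. The cecal goblet means lay above all 14 cecal absorptive samples, of which the highest had 133.1 CPM. Pdk4 in cecal goblet cells averaged 77.9 ± 2.9 CPM in Abx_4D, 79.0 ± 20 in Abx_14D, 53.2 ± 54 in GF and 148 ± 30 in Ctrl. Colon tuft cells of GF averaged 69.7 ± 41 CPM of Ppargc1a (n = 4). Goblet and tuft levels were not tested, and these classes can include cells that also passed the stem or cycling gate.

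Fabp1, the liver-type fatty acid binding protein abundant in small intestine, had 85 counts in 24 of 15916 cells, and 64 of the counts came from colon Abx_14D 1. In colon Abx_14D as a whole 66 counts lay in 12 of 3852 cells, 20 of them in 1 cell. Cecal Ctrl and Abx_14D cells had 0 counts, which in 1330 and 2296 cells allows a share of cells with a counted transcript of up to 0.226% and 0.131%, for counting error only and with no bound on cells whose transcripts were not captured. Cd36, a fatty acid translocase, had 20 counts in all and at most 2 in any cell. Neither gene passed the low-count filter, and the part of free RNA in these counts was not tested. Colon Abx_14D 1 also had the most Acaa1b among colon Abx_14D absorptive samples, 18.3 against 1.93 to 4.28 CPM.

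Of 84 other genes of fatty acid and ketone body metabolism, listed from their known roles, 65 could be tested in absorptive cells between tissues. In Abx_14D 13 rose and 9 fell in the colon, beside 19.3% and 7.37% of all genes, and in GF 8 rose and 7 fell, beside 12.1% and 4.81%. Acsm3, a medium-chain acyl-CoA synthetase, averaged 123.1 ± 30 CPM in colon and 3.25 ± 1.4 CPM in cecal absorptive cells of Abx_14D (5.37 ± 0.31, adjusted p = 5.5e-12) and 81.8 ± 16 and 4.13 ± 1.1 CPM in GF (4.28 ± 0.30, adjusted p = 2.7e-10). Fabp2, the intestinal fatty acid binding protein, fell by 2.03 ± 0.21 and 2.00 ± 0.22. Slc27a2, a very-long-chain acyl-CoA synthetase, fell by 1.96 ± 0.36 and 3.06 ± 0.37, and Acss2, which activates acetate, rose by 1.60 ± 0.17 and 1.63 ± 0.17.

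Between cecal groups, 64 of these genes were tested in absorptive cells. In Abx_4D 2 rose and 1 fell (1.47% and 1.49% of all genes), in Abx_14D 2 and 3 (3.68% and 3.16%), and in GF 3 and 5 (7.34% and 5.46%). Oxct1, the enzyme that lets tissues burn ketone bodies, averaged 88.4 ± 3.6 CPM in Abx_4D, 171.5 ± 25 in Abx_14D, 92.8 ± 19 in GF and 39.4 ± 7.0 in Ctrl. It rose by 1.14 ± 0.22, 2.10 ± 0.20 and 1.19 ± 0.20 against Ctrl (adjusted p = 0.0039, 6.4e-07 and 0.00036), and it was lower in GF than in Abx_14D by 0.91 ± 0.17 (adjusted p = 0.0025). Me1, the malic enzyme that feeds lipid synthesis, averaged 4.09 ± 1.9 CPM in GF, 15.1 ± 4.8 in Abx_14D and 21.5 ± 4.2 in Ctrl, and the lipid droplet protein Cidec 4.84 ± 0.83, 13.3 ± 5.6 and 24.1 ± 7.7. Both fell in GF against Ctrl, by 2.24 ± 0.41 each, and against Abx_14D, by 1.70 ± 0.39 and 1.59 ± 0.38. Mgll, a monoacylglycerol lipase, fell by 0.89 ± 0.20 in Abx_4D, 1.27 ± 0.18 in Abx_14D and 0.99 ± 0.18 in GF. In cecal crypt cells Me1 fell by 2.65 ± 0.30 in GF and 1.02 ± 0.26 in Abx_14D against Ctrl, and Vnn1, a pantetheinase known as a PPARα target in liver, by 2.16 ± 0.46 and 1.95 ± 0.44.

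Along the crypt axis, 35 of 64 of these genes rose and 13 fell in colon absorptive cells, beside 26.2% and 46.9% of all genes, and 31 of 67 rose and 24 fell in cecal ones, beside 24.2% and 61.3%. Among relatives of the acyl-CoA synthetases and thioesterases above, the fatty acid transporter and synthetase Slc27a4 rose by 2.00 ± 0.13 in the colon and 2.01 ± 0.07 in the cecum, and Acot4, named after its values were seen, by 1.88 ± 0.22 and 1.66 ± 0.15. Mgll rose by 4.49 ± 0.25 in the colon and by 3.90 ± 0.11 in the cecum, and Acad11, an acyl-CoA dehydrogenase for long chains, rose by 2.48 ± 0.09 and 2.86 ± 0.06. Pecr, a peroxisomal enoyl-CoA reductase, fell by 2.24 ± 0.28 and 3.29 ± 0.29. Fabp2 rose by 2.65 ± 0.10 in the cecum, and the rise was smaller in the colon by 1.35 ± 0.17 (adjusted p = 1.7e-06). Acsm3 fell by 4.15 ± 0.12 in the cecum, and its fold change was higher in the colon by 2.72 ± 0.20 (adjusted p = 3.1e-10).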

How the data were processed

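Single-cell transcript counts were measured in colon and cecum epithelium. The deposited table holds raw whole-number counts of 24609 barcodes in 8 sublibraries, and mm39 and Seurat are named per the submitters' processing notes. Neither the aligner nor the counter is named in the labels read here. Groups came from the loaded sample named for each cell. Cells with at least 500 transcripts (64.7%, median 13472 transcripts) were kept, with doublets left in.

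A class score was the mean over its markers of log1p(counts per 10000). Gates were at least 1 for absorptive, 0.8 for stem, goblet and tuft, 0.6 for cycling and enteroendocrine, and 0.5 for immune and stroma cells, and cells over no gate or over conflicting gates were left out. Goblet, tuft and enteroendocrine cells that also passed the stem or cycling gate were kept in their class. Counts were summed per sample and class (at least 20 cells), and CPM is the sum scaled to the class total. All genes passing filterByExpr were tested by edgeR 4.0.16 quasi-likelihood fits with library-size scaling (R 4.3.3, limma 3.58.1), Benjamini-Hochberg adjusted over all of them, with 0.05 as threshold. DESeq2 1.42.0 served as an alternative. Absorptive against crypt fits had the loaded sample as a block. The difference of that contrast between tissues, and that of GF against Ctrl between classes, were tests added after the data were seen.

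Alternatives were TMM scaling, no low-count filter, at least 1000 transcripts per cell, a gate raised 1.5 times, all kept cells, no samples over 0.5% mitochondrial, a replicate block and leaving out each sample. Colon and cecal samples of the same group and number deviated together (correlation 0.194 to 0.414 in absorptive and 0.171 to 0.677 in crypt cells, over 0.1 in 8 of 8 pairs each), so they were treated as paired in that alternative. Samples of different numbers were not set beside these pairs. The regulators, Cpt1a, Pdk4, Angptl4, Plin2 and Fabp1 are named throughout, with up to 8 called members per comparison by size of fold change, at a mean of at least 10 CPM in either group, and up to 6 of the other fatty acid genes. One gene that the rule names is not reported here. Genes outside this rule were named after their values were seen. The members, lists and tests were chosen with earlier results of these data known. The limit for a count of 0 is 3 counts and covers counting error only. The fitting scripts were tested on simulated data. Python 3.11.15 was used.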

Additional observations from a re-analysis of the deposited data

Results flagged for a closer look

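Of 221 groups of 4 samples, 14 held a sample far from the other 3. For normally distributed values chance gives about 1 in 20. That rate does not apply to Fabp1, whose other samples were at or almost at 0, so nearly any count is flagged. In cecal absorptive cells these were Acsl1 in GF 1 (83.88 CPM, the others 28.1 to 34.2) and Angptl4 in Abx_14D 1 (15.63, the others 2.45 to 3.16). In cecal crypt cells they were Cpt2 in Abx_4D 2 (25.72, the others 32.4 to 33.4), Fabp1 in GF 1 (0.2681, the others 0), Ppard in Abx_14D 1 (196.1, the others 210.0 to 211) and Ppargc1a in Abx_14D 1 (67.36, the others 87.3 to 91.3).

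In colon absorptive cells they were Acaa1b in Abx_14D 1 (18.3, the others 1.93 to 4.28), Fabp1 in Abx_14D 1 (10.98, the others 0), Slc25a20 in Abx_14D 3 (216.7, the others 168 to 176), Acadl in GF 4 (252.4, the others 137.5 to 154) and Bdh1 in GF 1 (102.5, the others 72.5 to 75.3). In colon crypt cells they were Acot2 in Abx_14D 4 (15.39, the others 7.86 to 9.01), Fabp1 in Abx_14D 1 (1.39, the others 0) and Fabp1 in GF 1 (0.411, the others 0 to 0.0548). Colon Abx_14D 1 and cecal Abx_14D 1 account for 3 each of the 14. Most of the 14 lie in samples numbered 1, in both tissues and in both Abx_14D and GF. The part of the sample number was not tested.

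The fold change of absorptive over crypt cells differed between colon and cecum, with the higher value in the colon, for 21 members, and for 27.8% of all genes. With TMM scaling 11 members were higher and 2 lower in the colon, and in cells scoring under 1.5 the count was 5. The differences on the log2 scale were 0.541 for Ppara, 0.285 for Ppard, 0.512 for Pparg and 0.976 for Ppargc1a among the regulators. Among entry and spiral genes they were 0.427 for Cpt1a, 0.462 for Cpt2, 0.771 for Acadl, 0.393 for Acadvl, 0.755 for Ehhadh, 0.544 for Hadh, 0.479 for Acaa1a, 0.954 for Eci1 and 1.23 for Decr1. The electron carrier genes had 0.318 for Etfa, 0.616 for Etfb and 0.638 for Etfdh. The others were 0.831 for Bdh1, 1.17 for Acot2, 1.8 for Pdk4, 0.608 for Plin2 and 1.28 for Angptl4. The change of Ppargc1a in GF against Ctrl differed between absorptive and crypt cells by 0.987.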

How the results depend on the processing

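Of 3594 single-gene values under alternatives, 3400 kept their side of the threshold with no called value changing direction, 145 lost and 44 gained a call, and 5 called values reversed. The genes named throughout are included here whether called or not. Many of the 3400 are thus uncalled values that stayed uncalled, and their share does not measure how often a call held. The reversed values were, over all kept cells, Cpt1a (-0.0405) in Abx_14D and Decr1 (-0.0384) and Pdk4 (-0.0685) in GF for colon against cecal absorptive cells, and, for cells scoring under 1.5, Eci1 (0.0234) and Plin2 (0.0268) in cecal absorptive against crypt cells. Of 352 counts of called members, 290 stayed within 1.5 times. Counts in this section stand without the share of all genes called in the same fit, some of which are given above. A moved count is thus not read as a change of the module. In cecal absorptive cells, the counts that moved were, in Abx_4D against Ctrl, 0 with the stricter gate or all kept cells (1 as reported); in Abx_14D, 2 with TMM or DESeq2, 3 with no filter and 0 with all kept cells or without high-mitochondrial samples (1 as reported); and in GF 3 with all kept cells (6 as reported). GF against Abx_14D had 1 there with TMM, no filter, DESeq2 or the replicate block, and 2 in the colon with no filter (0 as reported). Colon against cecal absorptive cells had 4 with the stricter gate in both groups (7 as reported), 18 in Abx_14D and 12 in GF with all kept cells, and 1 and 2 for scores under 1.5.

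In cecal crypt cells, Abx_4D against Ctrl had 2 with no filter and 1 with DESeq2 or the replicate block (0 as reported); Abx_14D had 4 with no filter, 2 with DESeq2, 3 with the replicate block and 0 with the stricter gate or all kept cells (1 as reported); and GF had 10 with no filter, 9 with DESeq2, 3 with all kept cells and 2 without high-mitochondrial samples (5 as reported). GF against Abx_14D crypt cells had 1 in the cecum and 2 in the colon with no filter. Colon against cecal crypt cells had 9 in Abx_14D without high-mitochondrial samples (20 as reported) and 17 in GF with the colon and cecum pair as a replicate block (11 as reported). The zonation difference between tissues had 13 with TMM, 12 with DESeq2 and 5 for scores under 1.5 (21 as reported), and GF against Ctrl between classes had 3 with no filter (1 as reported).

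Leaving out 1 sample gave 0 to 1 called members in cecal absorptive cells of Abx_4D and of Abx_14D, 3 to 6 in GF and 0 to 2 for GF against Abx_14D; in crypt cells it gave 0 to 1 in Abx_14D, 2 to 5 in GF and 7 to 13 for colon against cecum in GF, and it gave 1 to 2 for GF against Ctrl between classes. Within a tissue, correlations of the same number exceeded 0.1 in 16 of 22 absorptive pairs (-0.365 to 0.541) and 21 of 28 crypt pairs (-0.473 to 0.595). No correlations of different numbers are set beside them, so they cannot show whether the numbers pair the samples. The replicate block counts above rest on numbers alone. Where no other value is given, the cause was not tested. Depth limits the low members most: Fabp1 and Cd36 were tested nowhere, and Acot1 in absorptive cells only against crypt cells.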
